A study of Mus musculus with 3 samples.

Results

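The BCL2 family decides whether a cell's mitochondria release the signal that starts death. Expression of 10 of its genes was examined in bone marrow (BM) monocytes, in spinal cord (SC) monocytes and in the monocyte-derived antigen-presenting cells (APCs) of the spinal cord. The genes were taken by name, as family members, and make up 10 of the 22238 genes listed in all 3 RNA-Seq libraries. They are the pro-survival genes Mcl1, Bcl2, Bcl2l1 and the paralogs Bcl2a1a, Bcl2a1b and Bcl2a1d, the effector gene Bax, and the BH3-only genes Bcl2l11, Pmaip1 and Bbc3.

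All cells came from wild-type female C57BL/6J mice of 10 to 12 weeks with experimental autoimmune encephalomyelitis (EAE), a model of multiple sclerosis. EAE was induced with MOG peptide in complete Freund's adjuvant and 250 ng of pertussis toxin, and cells were sorted at days 14 to 15. BM monocytes were sorted as Ly6Chi cells that were CD11b+ and CD45+ and lacked Ly6G and CD11c, and were pooled from 13 mice in 2 experiments. Both SC populations were CD64+, CD11b+ and CD45+ and lacked Ly6G, and were each pooled from 18 mice in 3 experiments. SC monocytes were Ly6Chi and APCs Ly6Clow/-. Spinal cords were digested with collagenase D and DNase I and run on a Percoll gradient. Bone marrow was flushed and enriched with a monocyte kit. In comparisons with BM monocytes, this difference in handling cannot be told apart from tissue. There was 1 library per population and no unimmunized control among the libraries, so no difference below has a replicate check and no p-value is given. One label of the APC sample names bone marrow as its source, while its title and tissue label name spinal cord.

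Pro-survival family members hold the pro-death members in check at the outer mitochondrial membrane. The effectors BAX and BAK form pores in that membrane, which releases cytochrome c. BH3-only proteins respond to stress or loss of growth signals by binding the pro-survival proteins, and some activate BAX and BAK directly. MCL1 and the BCL2A1 proteins are short-lived, so their amounts depend on continued synthesis. Human BCL2A1 is a single gene, whereas in the mouse it is duplicated, and the copies are so alike that reads can be shared between them.

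The first bases of the coding sequence show how alike the copies are. The stretches below, from exon 1 on GRCm38 with the start codon first, are shown because they hold 6 of the 12 coding bases at which the 3 genes differ. Capitals mark those 6 bases.
Bcl2a1a, chr9:88957051-88957140, plus strand: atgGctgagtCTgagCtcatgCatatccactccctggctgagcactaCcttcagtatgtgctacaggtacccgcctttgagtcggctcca
Bcl2a1b, chr9:89199360-89199449, plus strand: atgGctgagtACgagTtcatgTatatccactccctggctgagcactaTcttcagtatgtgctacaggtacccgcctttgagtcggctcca
Bcl2a1d, chr9:88731630-88731719, minus strand: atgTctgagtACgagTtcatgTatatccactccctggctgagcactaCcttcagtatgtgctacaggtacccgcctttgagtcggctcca

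Each coding sequence has 519 bases. Bcl2a1a and Bcl2a1b differed at 11 of them, Bcl2a1a and Bcl2a1d at 7, and Bcl2a1b and Bcl2a1d at 6. The longest coding run shared by all 3 was 217 bases, more than the 50 bases of a read. Of all 50-base windows of the transcripts, 31.04% in Bcl2a1a, 42.4% in Bcl2a1b and 20.5% in Bcl2a1d occurred in no other Bcl2a1 gene. Placing read pairs at a fragment length of 257, 274 and 249 bases, as the deposited lengths minus effective lengths give for the 3 libraries, raised the share that could be told from the other copies to between 55.9% and 56.7% for Bcl2a1a, 65.6% and 68.4% for Bcl2a1b, and 39.3% and 42.4% for Bcl2a1d. Bcl2a1d thus had the smallest share of windows and read pairs of its own, and more of its reads could be shared with the other copies.

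**Figure D1:**
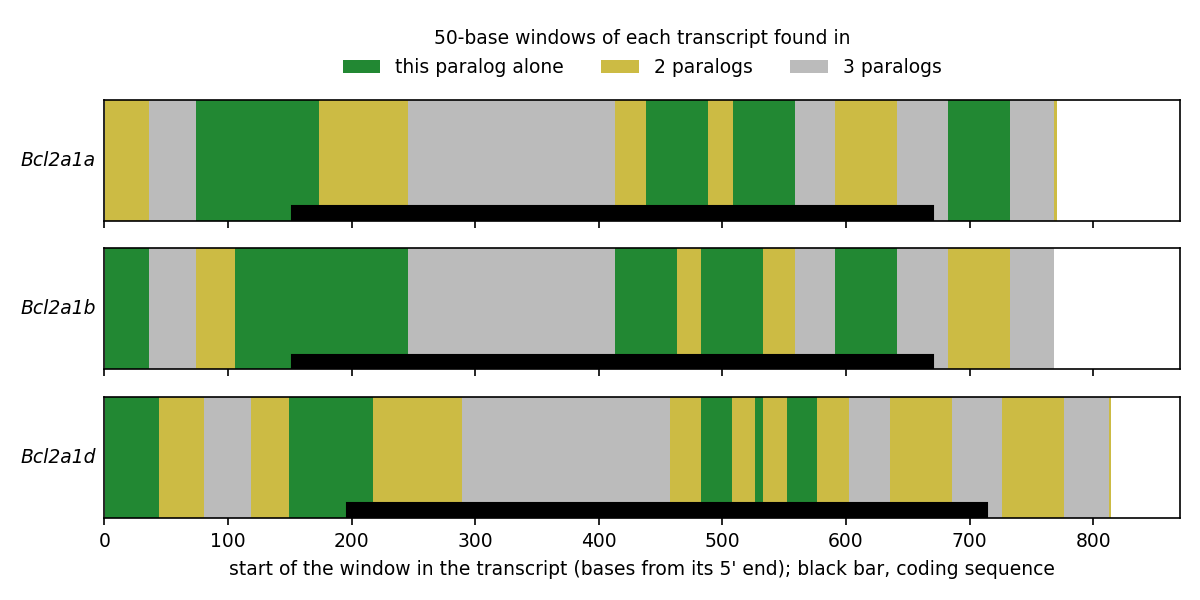
Windows of 50 bases along the transcripts of Bcl2a1a, Bcl2a1b and Bcl2a1d, coloured by how many of the 3 paralogs hold the same window. The x axis gives the window's start in bases from the 5' end and the black bar is the coding sequence; green, where a read is found in 1 of the 3 paralogs alone, covers the smallest part of Bcl2a1d, and a broad grey block within the coding sequence is common to all 3.

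A further copy, Bcl2a1c, had 0, 5 and 1 reads in BM monocytes, SC monocytes and APCs. The annotated gene Gm29094 starts inside exon 1 of Bcl2a1b on the same strand and shares 353 of the 768 windows of Bcl2a1b. It was listed with 1, 158 and 172 reads in the same order, few beside those of Bcl2a1b. To avoid resting on the division of reads, the 3 paralogs were also summed. Adding Bcl2a1c and Gm29094 left the log2 ratio of the sum at 8.08 between SC and BM monocytes.

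Levels are given as TPM (a level per transcript length, with the same sum in each library), rescaled to the common genes, with 95% Wilson intervals. Ratios between libraries come from reads scaled by size factors, with 98% intervals, and all intervals cover counting error only. A gene was called where the 98% interval lay beyond a 2-fold change and its TPM in 1 or both libraries exceeded 3. SC monocytes enter both steps below, first as the numerator and then as the denominator.

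The libraries held 33280643, 27283795 and 28209589 estimated reads in BM monocytes, SC monocytes and APCs. The defining monocyte gene Ly6c2 stood at 5205, 3602 and 1067 TPM, in the order of the Ly6C gates. Summed neutrophil markers had 7367, 1213 and 1270.0 TPM, and S100a8 and S100a9 made up most of the bone marrow sum, with 4471 and 2244 TPM. Its members did not move as one. Of the 9 tested from BM to SC monocytes, 6 fell, whereas Cxcr2 (153, 488 and 394 reads) and Retnlg (13, 107 and 423 reads) rose. Ngp had 186, 24.3 and 157 TPM and rose from SC monocytes to APCs, and Ly6g stayed between 1.64 and 2.57 TPM. Summed T cell markers had 0.768, 64.2 and 97.6 TPM, with Trac at 0, 190 and 346 reads. Summed microglia markers had 314, 523 and 1049 TPM and proliferation genes 937, 247 and 208 TPM. Summed CNS-associated macrophage markers had 15.7, 36.8 and 51.1 TPM, and B cell markers lay between 25.4 and 200.5 TPM, highest in BM monocytes. Conventional dendritic cell markers had 40.8, 21.3 and 28.3 TPM, with Flt3 at 37.8, 3.65 and 6.65 TPM. Of the 5 tested between APCs and BM monocytes, Flt3 was called lower, whereas Zbtb46, Itgae and Clec9a were called higher. In APCs these 3 had 3.37, 3.24 and 7.40 TPM.

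From BM to SC monocytes, 8 of the 10 family members rose, among them 5 pro-survival and all 3 BH3-only genes, and 0 fell. Of all 10072 genes tested, 13.8% were called higher and 10.7% lower, 24.4% in all. Bcl2 and Bax were not called, and Bcl2 was the 1 member under the TPM threshold in both libraries. The median log2 ratio of the 9 members tested was 2.90, beside -0.15 over all genes tested. The count and the median take the 3 Bcl2a1 paralogs, which can share reads, as separate genes. With the paralogs as 1 gene, 6 members were called in this step. From SC monocytes to APCs, 0 of the 10 were called, where 1.93% of 9734 genes were called higher and 1.7% lower. The members' median was -0.22 in that step, beside -0.04 over all genes. Between APCs and BM monocytes, 7 of the 10 were called higher and 0 lower, where 14% of 10190 genes were called higher and 11.8% lower, 25.8% in all. In that comparison 5 members were called with the paralogs as 1 gene.

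**Figure D2:**
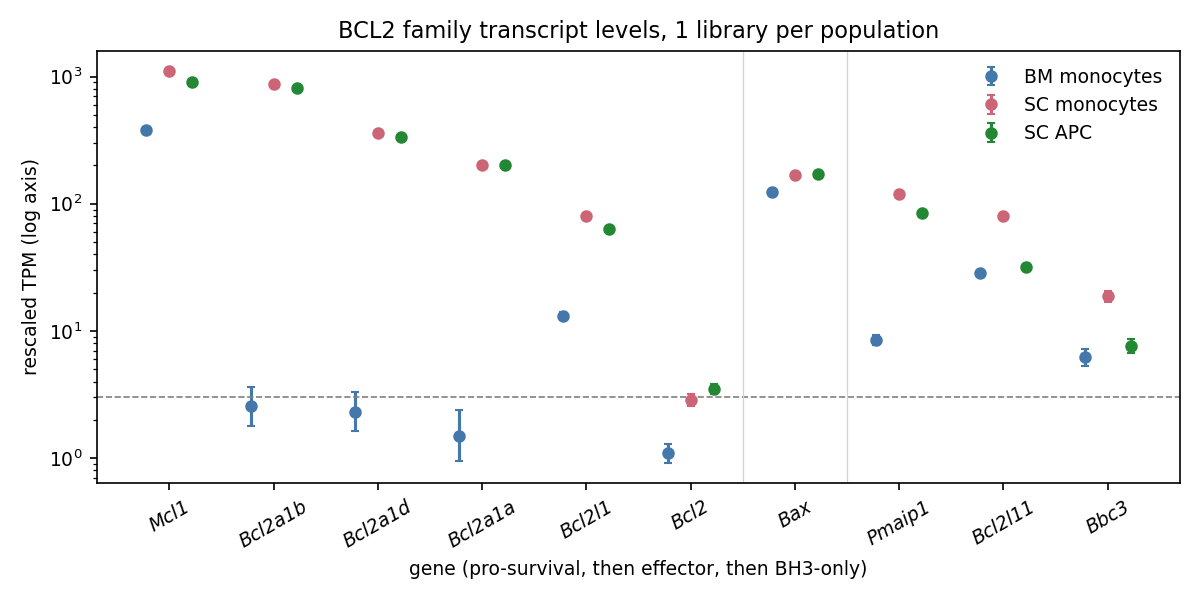
Rescaled TPM of the 10 genes on a log axis, with 1 point per library and 95% Wilson intervals for counting error; the dashed line is the TPM threshold of 3. Each gene is lowest in BM monocytes, and the 3 Bcl2a1 genes move from under 3 TPM in the bone marrow to at least 200.4 TPM in both spinal cord populations.

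The Bcl2a1 genes showed the widest change. Bcl2a1b (ENSMUSG00000089929.1, chromosome 9, 89199209 to 89207827) had 31 reads in BM monocytes, 9255 in SC monocytes and 9638 in APCs. Its level was 2.56 TPM (95% interval 1.80 to 3.63), 879 TPM (861 to 897) and 814 TPM (798 to 830.0). Among all genes ordered by TPM it moved from place 9543 to places 201 and 202. Bcl2a1d (ENSMUSG00000099974.1, chromosome 9, 88723285 to 88731914) had 30, 4111 and 4301 reads, or 2.32, 360.4 and 336 TPM. Bcl2a1a (ENSMUSG00000102037.1, chromosome 9, 88956900 to 88962419) had 18, 2117 and 2400 reads, or 1.50, 200.4 and 202 TPM. All 3 copies were thus under the TPM threshold in the bone marrow and far above it in both spinal cord populations.

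Between SC and BM monocytes the log2 ratio was 8.67 (98% interval 8.11 to 9.31) for Bcl2a1b, 7.55 (6.98 to 8.20) for Bcl2a1d and 7.31 (6.59 to 8.16) for Bcl2a1a. The intervals of all 3 overlapped. As a sum, which does not depend on the division of reads, the paralogs had 79, 15483 and 16339 reads, or 6.38, 1439.8 and 1352 TPM. The sum rose by a log2 ratio of 8.08 (7.72 to 8.48), or 271-fold (211 to 357), and 92 of the 10072 genes tested had a larger ratio. From SC monocytes to APCs its log2 ratio was -0.08 (-0.12 to -0.04), so a change of the sum by 2-fold lay outside the counting interval. In these bulk libraries, more cells with the transcript and more transcript per cell cannot be told apart. T cell markers were higher in the spinal cord libraries (7 of 7 tested). The neutrophil sum was higher in the bone marrow library, but Cxcr2 and Retnlg moved in the same direction as the Bcl2a1 genes, to 9.10 and 16.7 TPM in SC monocytes. The part of either cell type in the change of the Bcl2a1 genes was not tested. The T cell receptor gene Trac reached 29.1 TPM in APCs.

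The division of reads among the copies also differed between tissues. In SC monocytes Bcl2a1b took 59.8% of the Bcl2a1 reads (95% interval 59.0 to 60.5), Bcl2a1d 26.5% (25.9 to 27.3) and Bcl2a1a 13.7% (13.1 to 14.2). In APCs the shares were 59.0%, 26.3% and 14.7%. In BM monocytes, with 79 reads in all, they were 38.9% (29.2 to 50.3), 38.2% (28.1 to 49.0) and 22.9% (14.9 to 33.2). The bone marrow share was lower for Bcl2a1b and higher for Bcl2a1d, with intervals apart from those of both spinal cord populations. For Bcl2a1a the bone marrow interval overlapped that of APCs (14.2 to 15.2). The shares are estimates that depend on the division of shared reads, which the Wilson intervals leave out.

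Mcl1 (ENSMUSG00000038612.16, chromosome 3, 95658788 to 95663176) was the most abundant single member in every library. It had 383 TPM (379 to 388) in BM monocytes, 1109.9 TPM (1102 to 1118) in SC monocytes and 906 TPM (898 to 913) in APCs, on 25857, 67574 and 55052 reads. Its place among all genes by TPM was 387, 155 and 182. Mcl1 rose by a log2 ratio of 1.87 (1.84 to 1.89) from BM to SC monocytes, and its ratio of -0.45 (-0.47 to -0.43) from these to APCs was not called. With an assumed spread between libraries (a coefficient of variation of 0.2), the rise of Mcl1 was no longer called.

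Bcl2l1 (ENSMUSG00000007659.18, chromosome 2, 152780668 to 152831728), which encodes BCL-XL, had 13.1, 80.4 and 63.6 TPM on 583, 3122 and 2754 reads. It rose by a log2 ratio of 2.90 (2.75 to 3.05) in the SC monocytes and stood at -0.34 (-0.43 to -0.25) from these to APCs. Bcl2 (ENSMUSG00000057329.7, chromosome 1, 106538178 to 106714274), the gene that names the family, was the lowest member in every library, at 1.09, 2.88 and 3.49 TPM on 125, 315 and 459 reads. Its log2 ratio was 1.81 (1.46 to 2.17) in the first step, with TPM under 3 in both libraries. Between APCs and BM monocytes Bcl2 was called higher, with 2.20 (1.87 to 2.54), a call that was lost at a TPM threshold of 4. Bcl2l1 exceeded Bcl2 by 12, 28.0 and 18.2 times in TPM.

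**Figure D3:**
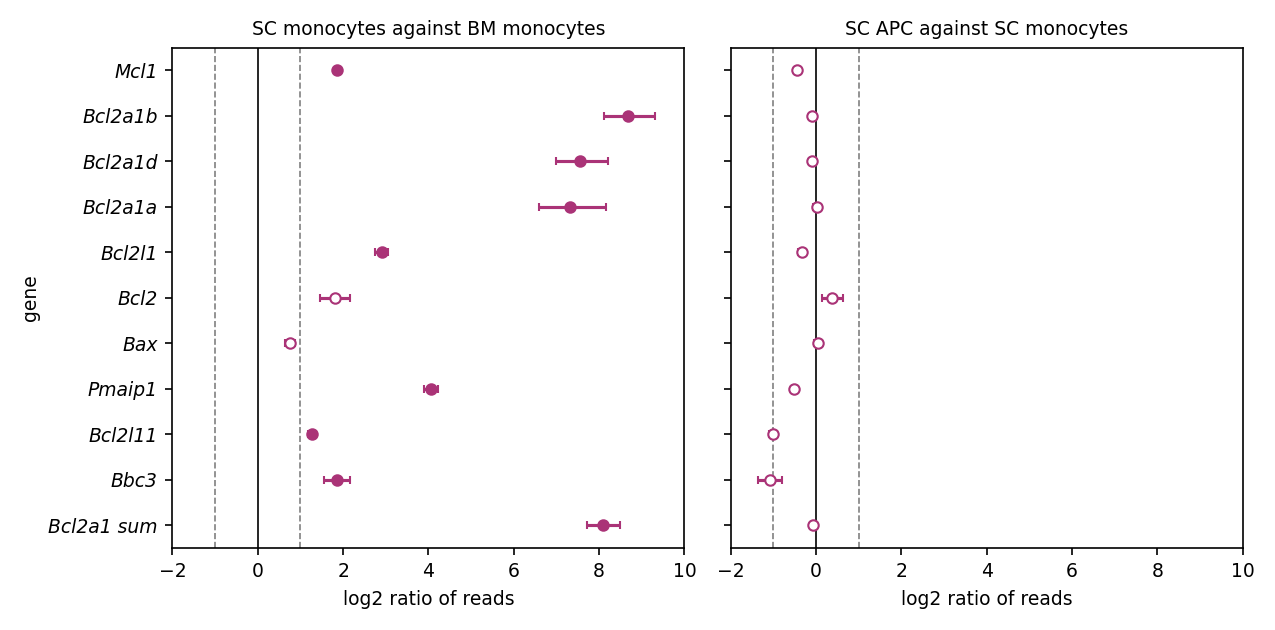
Log2 ratios of scaled reads for the 10 genes and the Bcl2a1 sum, with 98% intervals, in 2 comparisons. Filled points were called and open points were not, and dashed lines mark a 2-fold change. The left panel spreads from 0.76 for Bax to 8.67 for Bcl2a1b, whereas the right panel runs from -1.08 for Bbc3 to 0.39 for Bcl2.

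Bax (ENSMUSG00000003873.11, chromosome 7, 45461697 to 45466898), the pore-forming effector, moved least in the first step. It had 124 TPM (118 to 130) in BM monocytes, 167 (160 to 175) in SC monocytes and 172 (165 to 180) in APCs. The last of these intervals overlapped, and the bone marrow value lay below both. Its log2 ratio was 0.76 (0.64 to 0.87) in the first step and 0.05 (-0.06 to 0.15) in the second, both within 2-fold. Bak1, the other effector, had 179, 162 and 204 TPM, with log2 ratios of 0.15 and 0.26. In the first step its TPM fell while its ratio of scaled reads was above 0, so its direction there depends on the measure. Bok was at or under 5 reads in each library. Gm45808, a gene annotated across Bax on the same strand, was at 0 reads in all 3.

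All 3 BH3-only members rose from BM to SC monocytes. Pmaip1 (ENSMUSG00000024521.8, chromosome 18, 66458533 to 66465565) encodes NOXA, which binds MCL1 and the BCL2A1 proteins. It had 8.53 TPM (7.77 to 9.37), 118 TPM (115 to 121) and 84.5 TPM (81.9 to 87.1) in BM monocytes, SC monocytes and APCs. Pmaip1 rose by a log2 ratio of 4.06 (3.90 to 4.23), the largest of the members outside the Bcl2a1 genes, and had -0.52 (-0.59 to -0.45) in the second step. In TPM, Mcl1 exceeded Pmaip1 by 44.9 times in BM monocytes and by 9.39 and 10.7 times in the spinal cord populations.

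Bcl2l11 (ENSMUSG00000027381.16, chromosome 2, 128126038 to 128162547) encodes BIM, which binds every pro-survival member. It had 28.8, 80.4 and 32.1 TPM on 2139, 3708 and 2059 reads, so the SC monocytes stood above both other populations. It rose by a log2 ratio of 1.28 (1.18 to 1.37) in the first step. In the second step its ratio was -1.01 (-1.10 to -0.91), across the 2-fold line and not called. SALMON's effective length of Bcl2l11, an average over its isoforms, was 3482, 2380 and 3082 bases. On reads divided by that length its second ratio was -1.24 and called lower, and its first ratio was 1.73. Its rise was not called with the assumed spread of 0.2 or when all genes of the monocyte libraries set the scale.

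Bbc3 (ENSMUSG00000002083.13, chromosome 7, 16308393 to 16318205) encodes PUMA. Its pattern was like that of Bcl2l11, with 6.19 TPM (5.30 to 7.22), 18.7 TPM (17.0 to 20.5) and 7.63 TPM (6.68 to 8.70) on 161, 419 and 220 reads. The intervals of BM monocytes and APCs overlapped. Bbc3 rose by a log2 ratio of 1.86 (1.55 to 2.17), a call that was lost with the assumed spread of 0.2. Its ratio of -1.08 (-1.37 to -0.81) to APCs was not called. Bcl2l11 and Bbc3 were thus the members with the lowest ratios from SC monocytes to APCs, and in the comparison of APCs with BM monocytes they had 0.27 and 0.77, not called.

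Summed by role, the 7 pro-survival genes (the 6 members and Bcl2l2, which encodes BCL-W) had 409, 2642 and 2332 TPM in BM monocytes, SC monocytes and APCs. Mcl1 held 93.6% of the first sum, 42.0% of the second and 38.8% of the third. The Bcl2a1 genes held 1.56%, 54.5% and 58.0%. Both spinal cord populations therefore had more Bcl2a1 than Mcl1 transcript per length, by 1.30 and 1.49 times, although Mcl1 exceeded each copy alone. By reads, which favour long transcripts, the Bcl2a1 share was 0.291%, 17.8% and 21.8%, with Mcl1 still ahead. Bcl2l1 stayed between 2.73% and 3.20% of the TPM sum in every library.

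The 8 BH3-only genes (the 3 members with Bid, Bad, Bmf, Bik and Hrk) had 207, 293 and 185 TPM, and the 3 effector genes 303, 329 and 376 TPM. Pro-survival transcripts exceeded BH3-only transcripts by 1.98, 9.03 and 12.6 times. Within the BH3-only sum, Pmaip1 went from 4.13% to 40.4% and 45.6%, and Bcl2l11 from 13.9% to 27.5% and 17.3%. Bid, which links death receptors to mitochondria, went from 31.1% to 5.69% and 7.93%. Bmf, which senses loss of attachment, went from 20.3% to 5.89% and 6.69%. These are sums of transcript levels, and protein amounts were not measured.

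**Figure D4:**
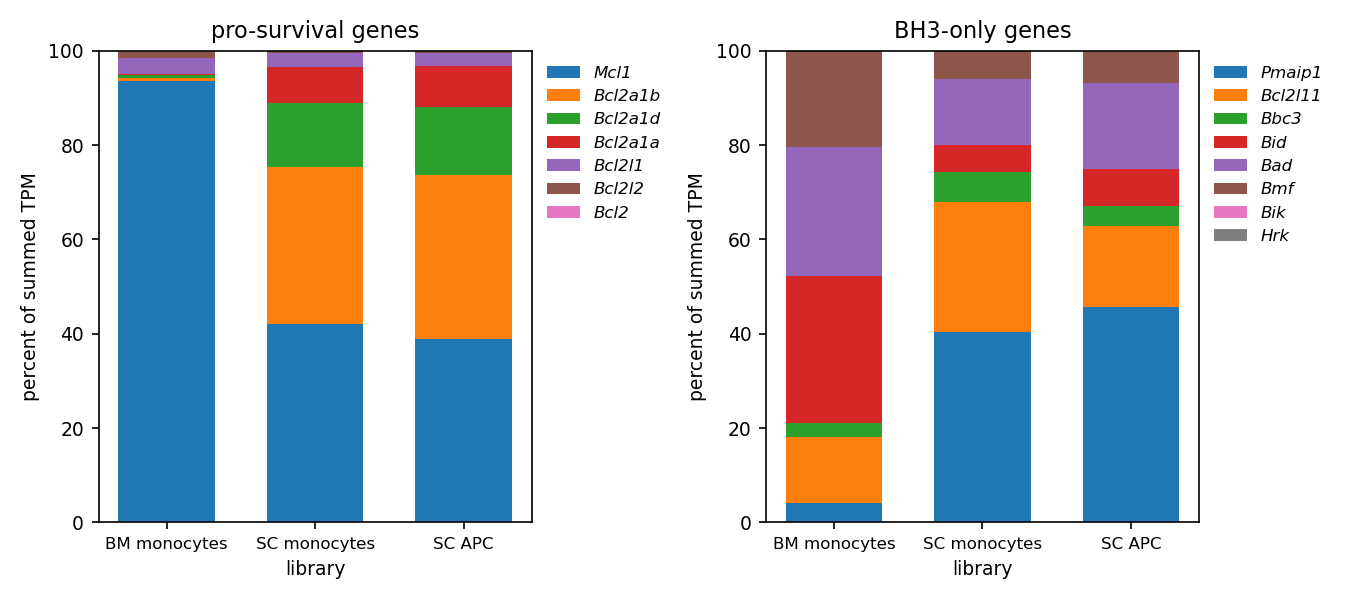
Percent of the summed TPM of the pro-survival genes (left) and the BH3-only genes (right) held by each gene in each library, with no error bars. Mcl1 fills 93.6% of the left bar for BM monocytes and shares the spinal cord bars with the Bcl2a1 genes, while Pmaip1 is the largest segment of the right panel's spinal cord bars, at 40.4% and 45.6%.

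Promoters of the members were read from RefSeq on GRCm38.p6, as 250 bases before to 50 bases after each start. A promoter was found for 9 members, with 14 in all. Those of the 3 Bcl2a1 genes were between 98.0% and 99.2% identical where they aligned. Each held 1 match to the AP-1 pattern TGANTCA and 1 PU.1 motif (GAGGAAGT), and no κB, FOXO or CRE motif. The AP-1 pattern allows any base at N, wider than the consensus, and all 3 copies had A there. PU.1 is a factor that myeloid cells need to develop, and AP-1 is a family of factors induced by activation. The PU.1 motif was chosen after the promoters had been seen. The stretches below show both motifs in capitals, AP-1 first, in the direction of transcription.
Bcl2a1a, chr9:88956780-88956843, plus strand: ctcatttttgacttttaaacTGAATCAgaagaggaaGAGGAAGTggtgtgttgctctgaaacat
Bcl2a1b, chr9:89199089-89199152, plus strand: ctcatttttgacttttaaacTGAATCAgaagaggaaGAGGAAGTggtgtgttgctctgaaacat
Bcl2a1d, chr9:88731927-88731984, minus strand: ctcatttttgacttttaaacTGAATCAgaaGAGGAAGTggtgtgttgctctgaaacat

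The stretch has 64 bases in Bcl2a1a and Bcl2a1b and 58 in Bcl2a1d. Counting both strands, the AP-1 pattern, with any base at N, is in 7.81% and the PU.1 motif in 3.2% of the 32851 mouse promoters of this length. No other promoter of a member held either motif. The κB motif, in 8.46% of promoters, was in 1 promoter of Bcl2l1 and 1 of Bbc3. The FOXO motif (GTAAACA, 3.65% of promoters) was in 1 promoter of Bcl2l11 and 1 of Bbc3, and the CRE motif (TGACGTCA, 1.79%) was in none. A match describes the letters in these windows and was not tested as a binding site.

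The other genes of the pathway were taken from 6 lists of 72 genes, of which 59 passed the TPM threshold in each comparison. Between SC and BM monocytes, 7 were called higher and 4 lower, 18.6% of those tested beside 24.4% of all genes, with a median log2 ratio of 0.15. Between APCs and SC monocytes 1 was called higher and 0 lower, 1.69% beside 3.63% of all genes, with a median of -0.19. Between APCs and BM monocytes 7 were called higher and 8 lower, 25.4% beside 25.8% of all genes, with a median of -0.08. With an assumed coefficient of variation of 0.2, the calls of both directions together went from 11 to 7 in the first comparison and from 15 to 4 in the last.

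Among the 16 other BCL2 family genes, 9 were tested in the first step, with 1 called higher and 2 lower. Bnip3, which encodes a mitochondrial protein of mitophagy and hypoxia, rose from 23.6 to 131 TPM, a log2 ratio of 2.77 (2.63 to 2.91). Bid fell by 1.61 on the log2 scale, from 64.3 to 16.7 TPM, and Bmf fell by 1.21, from 42.0 to 17.2 TPM. These 2 BH3-only genes moved opposite to Bcl2l11, Pmaip1 and Bbc3. Bcl2l14 was the 1 pathway gene called from SC monocytes to APCs, with 38 and 177 reads and a log2 ratio of 2.04 (1.47 to 2.67). In the comparison of APCs with BM monocytes Bcl2l13 was also called lower, with -1.20 (-1.34 to -1.06).

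Of the 14 apoptosome and caspase genes, 0 were called higher in any comparison. Casp2, an initiator caspase, fell by 1.30 on the log2 scale in the SC monocytes, from 54.4 to 18.1 TPM. Between APCs and BM monocytes Apaf1, the scaffold of the apoptosome, had 18.4 and 64.5 TPM, with a log2 ratio of -1.53 (-1.61 to -1.45). Casp2 (-1.71) and Dffb (-1.54), a nuclease of DNA fragmentation, were also called lower there. Of the 9 inhibitors of apoptosis, Birc5, which is also on the list of proliferation genes, fell by 3.24 on the log2 scale, from 95.9 to 7.29 TPM. Of the 8 proliferation genes, 7 fell in the same comparison, and the part of cell division in the level of Birc5 was not tested. Xiap, a direct inhibitor of caspases, was called lower between APCs and BM monocytes, with -1.40 (-1.48 to -1.32).

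Of the 10 death receptor genes, Cflar, which encodes the caspase-8 inhibitor FLIP, was the 1 called, from 49.1 to 213 TPM and a log2 ratio of 2.15 (2.09 to 2.22) in the SC monocytes. It had 78.9 TPM in APCs, with a ratio of -1.04 (-1.09 to -0.99) across the 2-fold line. The effective length of Cflar went from 3055 bases in SC monocytes to 4167 in APCs, which enters the TPM but not the ratio. Of the 12 p53 pathway genes, 8 were tested in the first step, with 3 called higher in the SC monocytes and 0 lower. Ratios were above 0 for 4 of the 8 and below 0 for 4, with a median of 0.06. Cdkn1a, which encodes the cell cycle inhibitor p21, had 26.9, 612 and 452 TPM, and its log2 ratio in the first step was 4.85 (4.74 to 4.96). Mdm2, which encodes the ligase of p53, had 40.1, 259 and 85.2 TPM, with 2.61 (2.52 to 2.69), and Sesn2 had 1.74 (1.58 to 1.90). From SC monocytes to APCs Mdm2 had a log2 ratio of -0.98, not called, on 8788 and 4950 reads. Its effective length went from 1752.5 to 2786 bases between these 2 libraries, which enters the TPM but not the ratio. Trp53 itself was not called, with -0.36 (-0.48 to -0.24). Bbc3 and Pmaip1 are known as p53 targets too, and the part of p53 in these levels was not tested.

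In the list of genes that control MCL1 and the BH3-only proteins, 2 of 11 rose in the SC monocytes. Ddit3, which encodes the stress factor CHOP, went from 13.6 to 47.2 TPM, with a log2 ratio of 2.14 (1.84 to 2.45). Its partner Trib3 went from 23 to 183 reads, with 3.44 (2.75 to 4.22). Foxo3, a factor known to drive Bcl2l11, was not called, with 0.28 (0.19 to 0.36).

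**Figure D5:**
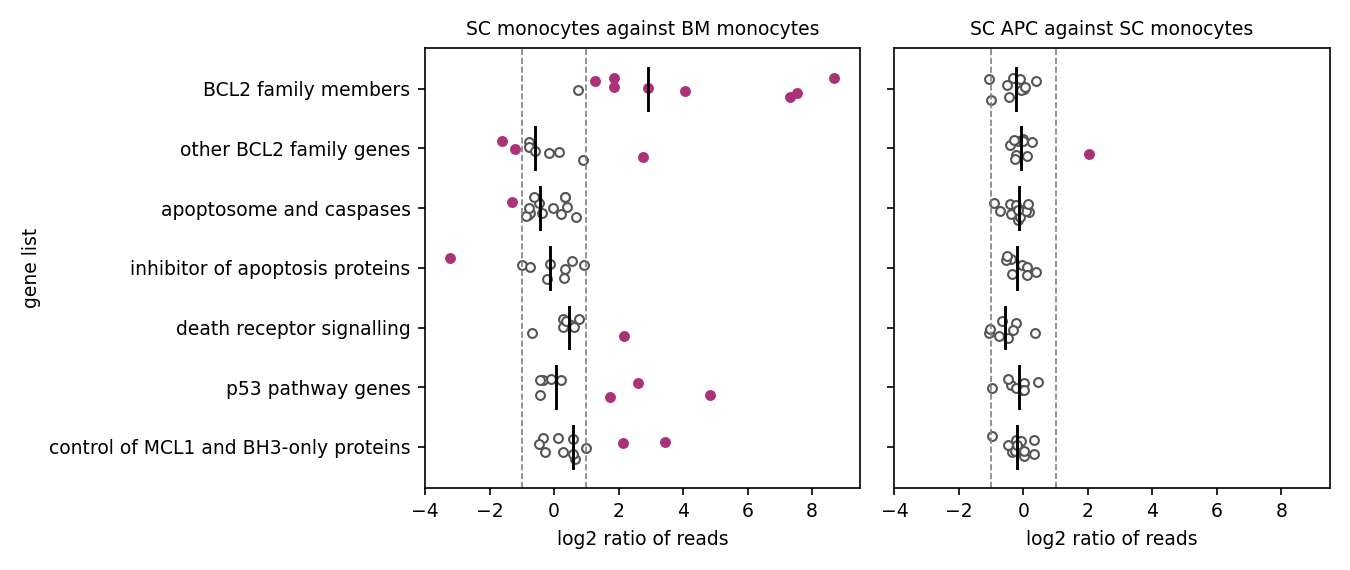
Log2 ratios of scaled reads for the tested genes of the member list and the 6 pathway lists, in 2 comparisons, with each gene a point spread vertically for legibility. Filled points were called, black bars are list medians and dashed lines mark a 2-fold change. In the left panel the members' median, with the Bcl2a1 paralogs as separate genes, is 2.90. The pathway lists' medians there lie between -0.58 and 0.58, and in the right panel 1 point, Bcl2l14, is called.

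The genes closest to the Bcl2a1 sum were found by the distance between pairs of log2 ratios (the first and the second step) over 10031 genes and 3 libraries. They were Mobp (distance 0.23), Egr2 (0.24), Htra4 (0.32), Slamf7 (0.33) and Ccl12 (0.33). Egr2, a transcription factor, had 0.519, 169 and 156 TPM, and Slamf7, a receptor of immune cells, had 0.652, 134 and 154 TPM. Ccl12, a chemokine that recruits monocytes, had 0.320, 118 and 121 TPM. Mobp, a myelin gene of oligodendrocytes, was close on few reads, with 1, 292 and 345. Htra4 had 0, 108 and 121 reads.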

How the data were processed

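RNA from sorted, pooled cells was made into 1 mRNA library per population and sequenced as pairs of 50 bases. The authors ran SALMON 0.14.1 on mm10 with GENCODE vM22, pooled isoforms per gene, and deposited TPM (normalized for effective length and library size) and estimated counts of reads, which are not normalized. The deposited monocyte values list 54432 genes and the APC values 22242, so a second transcript set was used, which can alter effective lengths and the division of reads.

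TPM was rescaled over the 22238 common genes. Estimated counts were rounded, and size factors were medians of ratios. The log2 ratio was the median of a gamma posterior of the reads plus 1, with percentiles 1 and 99 as bounds, after the definition of GFold. The calculation was checked on simulated libraries with counting error only, well-covered genes and planted changes beyond 2-fold. That check did not cover genes with few reads or spread between libraries. TPM intervals are 95% Wilson intervals, and the floor was 3 reads. PCR copies are not independent molecules. Symbols, coordinates and transcripts came from GENCODE M21 on GRCm38, which holds 99.0% of the 22238 identifiers in the same version.

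All 10 members are named, then called genes of the pathway lists (at most 4 per list and comparison, by the bound nearest to 0), the 5 genes nearest to the Bcl2a1 sum (without Gm-numbered and Rik genes), and abundant or defining markers. Bak1, Bok, Trp53 and Foxo3 were named in addition, after their values were seen. Members, lists and tests were chosen with earlier results of these data known. Alternatives were total reads or TMM factors for scaling, a TPM minimum of 4 or none, reads per effective length, an assumed coefficient of variation of 0.2 or 0.4, percentiles 0.1 and 99.9, 0.5 reads added, a plain 2-fold change, summed paralogs, and all genes of the monocyte libraries. R 4.3.3 with edgeR 4.0.16 gave the TMM factors, and Python 3.11.15 with scipy 1.17.1, numpy 2.4.6, pandas 2.3.3 and matplotlib 3.10.9 all other values.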

Additional observations from a re-analysis of the deposited data

How the results depend on the processing

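No member changed direction under any alternative. The log2 ratio of the Bcl2a1 sum ranged from 7.84, with all genes of the monocyte libraries setting the scale, to 8.09 between SC and BM monocytes and stayed called. That setting of the sum, the sum with Bcl2a1c and Gm29094, and the alternatives for the pathway lists were chosen after seeing the data. With an assumed coefficient of variation of 0.2 or 0.4, the members called there went from 8 to 5 in both cases, losing Mcl1, Bcl2l11 and Bbc3, and the pathway list genes from 11 to 7 and 3. Between APCs and BM monocytes, the members called went from 7 to 4 with 0.4, and the pathway list genes from 15 to 4 and 2. Between APCs and SC monocytes, the pathway list genes called went from 1 to 0 with 0.2 and with 0.4, to 5 with reads per effective length and to 3 with a plain 2-fold change. The members called there went from 0 to 1 with reads per effective length (Bcl2l11) and to 2 with a plain 2-fold change (Bcl2l11 and Bbc3). The Bcl2a1 share of pro-survival transcripts was 0.291%, 17.8% and 21.8% by reads in place of TPM, and without Bcl2l2 it was 1.58%, 54.7% and 58.1%.

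Over all genes, the calls between SC and BM monocytes were 1386 higher and 1073 lower, against 910 and 445 with an assumed 0.2, 622 and 218 with 0.4, and 2623 and 1178 with no TPM threshold. Between APCs and SC monocytes, 188 were higher and 165 lower, against 232 and 320 with reads per effective length, 83 and 35 with 0.2, 41 and 14 with 0.4, 385 and 292 with no TPM threshold, and 326 and 302 with a plain 2-fold change. Between APCs and BM monocytes, 1426 and 1199 became 968 and 488 with 0.2, 714 and 222 with 0.4, and 2870 and 1333 with no TPM threshold. Scaling by total reads shifted all log2 ratios by -0.18, 0.05 and -0.14 in these 3 comparisons. Pooled libraries give no replicate block and no library could be left out, and the 79 Bcl2a1 reads in BM monocytes limit the division among the copies there.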
